A study of Mus musculus with 4514 samples.

Results

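Single hepatocytes of mice at postnatal day 24 (P24) were set against those at postnatal day 18 (P18), ages that lie on either side of the usual time of weaning. The cells were chosen by their age label alone, as 377 of the 4514 samples of the series, 47.2% of them from P24 and 52.8% from P18, and no measured value entered that choice. Both ages carried Alb-Cre; Rosa-tdTomato, in which Cre under the albumin promoter switches on the red fluorescent protein tdTomato in hepatocytes and their progeny, and the labels give neither a treatment, a ploidy nor a lobule position for either age. Each cell was picked singly into lysis buffer and sequenced by mSTRT-seq, a plate-based method in which barcoded complementary DNAs of many cells are pooled before the library is built. No label ties a cell to an animal, so each age is 1 pool of cells and its replicate is unknown. Cells of the other 10 ages (E17.5 to P60) and nuclei of P18 and P60 hepatocytes, labelled 2N or 4N by DNA content, had the same genotype and are used for context, again with 1 pool for each. The labels state no day of weaning, no hour of collection and no feeding state.

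Suckling mice live on milk, which is rich in fat and poor in carbohydrate, and their livers burn fatty acids and make ketone bodies under the nuclear receptor PPARA. Weaning to chow brings more carbohydrate and iron and less cholesterol, and liver cells then make more of their own fatty acids and sterols under the SREBP transcription factors. Hepcidin, the liver hormone that lowers iron export into blood, is switched on by iron through BMP ligands and SMAD proteins, which also act on the Id genes. H19, an imprinted long non-coding RNA, and its neighbour Igf2 are abundant in fetal liver and are silenced after birth.

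The cells held 38950 to 748754 counts each at P24 (median 243985, median 7859 genes detected) and 23244 to 460743 counts each at P18 (median 171524, median 6827 genes). No pair of cells had identical counts. The hepatocyte markers were measured in both pools: their summed level per cell was 31590 to 105300 CPM (each cell's counts scaled to a total of 1000000) at P24 and 37350 to 128000 CPM at P18, and 0 of the 12 differed by 2-fold or more. Xist, the RNA of the inactive X chromosome, had a count in 1.12% of cells at P24 and 1.01% at P18.

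At both ages the cells fell into a pair of sets by the share of their counts that came from ERCC, synthetic RNAs spiked into the lysed cells. At P24 the first 67.98% of cells by their number in the labels held 0.5911 to 3.319% of ERCC counts, and the other 57 cells 0.1073 to 0.4148%. At P18 the first 66.33% held 0.5272 to 6.202%, and the other 67 cells 0 to 0.02767%. The sets, called spike-rich and spike-poor here, did not overlap in that share within either age. The labels have no name for them, so whether they are animals, plates or days is not given, and a spike-rich set at P24 is not tied to that at P18. Spike-poor cells held more counts, with a median of 349334 against 205381 in spike-rich cells at P24, and of 208466 against 166918 at P18. The sets were found after the data were seen. They differed from each other in many of the genes below, so values are given for both, as 4 sets of cells, and age and set cannot be told apart where the sets of 1 age disagree.

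A gene's level is the mean over cells of its CPM, spike-ins left out, and its difference is that of log2(CPM + 1), P24 minus P18. Over the 8093 genes that averaged at least 5 CPM and a count in at least 10% of cells, 1.87% were at least 2-fold higher at P24 and 0.729% at least 2-fold lower (59 genes), with a median difference of 0.17. These shares are the background of each count by gene list over the pooled cells below, and some lists share members. Of the genes at least 2-fold higher, 77.48% were higher in both P24 sets than in both P18 sets, and 32 genes by 2-fold in each of the 4 pairings of a P24 with a P18 set. Of the 59 lower genes, 44 were lower in both P24 sets and 16 by 2-fold in each pairing. Over all compared genes 27.28% lay higher in both P24 sets and 6.005% lower. The sets are made of the same cells by which the 2-fold genes were chosen, so larger shares among those genes follow in part from that choice. Between the spike-rich sets 4.4% of genes were at least 2-fold higher and 0.859% lower, and between the spike-poor sets 2.98% and 3.99%. With 1 pool on each side these counts have no test, and the intervals printed with sums and shares (95%, exact Poisson and exact Clopper-Pearson) cover counting error only. The split depended on the scale: with TMM factors, which moved the median to 0.01, 1.04% of genes were at least 2-fold higher and 1.27% lower, and 82 and 59 of these were among the genes above. Neighbouring steps of age gave shares of the same order, with 1.41% higher and 1.81% lower at P15 against P12, 1.19% and 1.37% at P18 against P15, and 1.74% and 1.38% at P30 against P24.

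A test over pools was possible only across the break: the summed counts of P24, P30 and P60 against those of P12, P15 and P18 (3 pools each), fitted with edgeR's quasi-likelihood test. It compares ages after the break with ages before it, not P24 with P18. Of 12364 genes, 10 were called higher after the break (0.0809%) and 1 lower (0.00809%) at a Benjamini-Hochberg adjusted p of 0.05, and 2838 had an unadjusted p under 0.05. Among the 10 were Hamp, Hamp2, Msmo1, Idi1, Fdps, Cyp51, Elovl6, Cyp7a1 and Gsta1, and the 1 was Gm4952 (log2 difference −1.19 ± 0.13 SE, adjusted p = 0.0482). Gsta1 and Gm4952 were named after their values were seen. On simulated counts of the same depth, this design called 94% of genes changed 4-fold and 15% of genes changed 2-fold. There every gene had the same spread (coefficient of variation 0.311 between pools) and no trend with age within a side. These shares therefore need not hold for the data, and a gene not called may still differ by more than 4-fold. The calls rested on which ages entered: without P15 edgeR called 0 genes, with 1922 at an unadjusted p under 0.05. With the spike-rich cells alone in the P24 and P18 pools, edgeR called 1.35% of genes higher and 1.05% lower, with all 11 calls among them. With the spike-poor cells alone it called 0 genes higher and 3 lower, none of the 11 among them, with 2015 at an unadjusted p under 0.05.

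Among the 32 genes higher by 2-fold in each pairing of sets were the hepcidins Hamp and Hamp2, the BMP-responsive Id1, Id3 and Smad7, the lipid enzymes Scd1, Elovl6, Fdps, Nsdhl and Tm7sf2, the urinary proteins Mup3 and Mup20, Cyp2c54, Orm1 and Slco1a1. Among the 16 lower ones were H19, Tfrc, Fabp5, Cyp4a31, Acot3, Pdk4, Cd63, Hsd3b1, Nupr1 and Cyp3a16. These are the differences of P24 from P18 on which both sets of each age were alike in direction and past 2-fold, and most of the cholesterol genes are not among them.

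The widest differences of all compared genes were those of the hepcidins. Hamp encodes hepcidin, and Hamp2 is its close copy in the mouse, next to it on chromosome 7 (GRCm38, Hamp chr7:30942368-30944032 and Hamp2 chr7:30922372-30924681, both on the minus strand). Their promoters are shown because they are nearly the same sequence and the genes were higher together. The windows run from 250 bases before to 50 bases after the transcript start, 5′ to 3′ on the gene's strand (RefSeq, GRCm38.p6, Hamp chr7:30943980-30944279 and Hamp2 chr7:30924132-30924431). Capitals mark GGCGCC, a core known to bind BMP-regulated SMAD proteins, in Hamp and the 6 bases aligned with it in Hamp2.
Hamp: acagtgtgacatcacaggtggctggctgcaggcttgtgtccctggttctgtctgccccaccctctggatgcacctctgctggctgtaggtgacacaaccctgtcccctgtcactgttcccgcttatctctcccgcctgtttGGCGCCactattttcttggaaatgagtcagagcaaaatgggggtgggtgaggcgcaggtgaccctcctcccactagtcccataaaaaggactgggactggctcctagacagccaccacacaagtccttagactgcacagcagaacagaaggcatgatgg
Hamp2: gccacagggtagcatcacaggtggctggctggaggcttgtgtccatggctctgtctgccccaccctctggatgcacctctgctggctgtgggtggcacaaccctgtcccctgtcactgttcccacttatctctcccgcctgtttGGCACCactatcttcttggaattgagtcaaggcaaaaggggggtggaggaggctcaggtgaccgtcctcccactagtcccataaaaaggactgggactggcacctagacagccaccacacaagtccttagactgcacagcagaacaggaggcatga
The windows were identical at 92.9% of aligned bases. The capitals start at base −109 from the transcript start in Hamp and at base −106 in Hamp2, and differ by G4A, counted from 1 at their 5′ end with the base of Hamp first. GGCGCC, which reads the same on both strands, occurred in 13.4% of 27025 promoter windows of the same length and in 25.4% of those of compared genes, so its presence is a description only. The longest transcripts of Hamp and Hamp2 were identical at 388 of 410 aligned bases (94.6%), and how reads common to both were divided is not given, so the split of counts between them is uncertain.

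In P24 cells Hamp was 0 CPM in the lowest cell, 133.1 CPM in the median cell and 7138 CPM in the highest, against 0, 0 and 103.4 CPM in P18 cells. Of the P24 cells, 96 lay above the highest P18 cell, although the cells near 0 overlapped. By set, Hamp averaged 319.2 CPM in spike-rich and 2091 CPM in spike-poor P24 cells, against 14.02 CPM in spike-rich and 2.797 CPM in spike-poor P18 cells. The P24 sets thus lay on the same side of both P18 sets, with the spike-poor set highest at P24 and lowest at P18 (log2 differences 4.41 between the spike-rich and 9.11 between the spike-poor sets). Cut by cell number into 6 runs of cells at each age, Hamp was 170.6 CPM in the lowest P24 run and 34.21 CPM in the highest P18 run. Of all counts of a pool, Hamp took 1125 CPM (1116 to 1135) at P24 and 9.34 CPM (8.36 to 10.4) at P18. The level, in which every cell weighs the same, was 886 CPM at P24 against 10.2 CPM at P18, a log2 difference of 6.30. A Hamp count was found in 91.01% of P24 cells (85.8 to 94.8%) and 49.2% of P18 cells (42.1 to 56.4%). With every cell thinned to 50000 counts, which left out 1 P24 cell and 7 P18 cells, the Hamp shares were 76.3% and 28.1%. Of the P24 hepatocytes, 10% stood at or above 2813 CPM.

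Hamp2 had a lowest, median and highest cell of 0, 346 and 12390 CPM at P24, against 0, 0 and 336.5 CPM at P18, and 90 P24 cells lay above the highest P18 cell. Its level was 975 CPM at P24 and 14.7 CPM at P18 (log2 difference 5.96). By set it was 576.5 CPM in spike-rich and 1820 CPM in spike-poor P24 cells, against 21.89 CPM in spike-rich and 0.4998 CPM in spike-poor P18 cells. Within cells thinned to 50000 counts, Hamp and Hamp2 had a Pearson correlation of 0.56 over the P24 cells and of 0.22 over the P18 cells, a description over cells of 1 pool and of genes that may trade reads. Within the sets it was 0.51 (spike-rich) and 0.45 (spike-poor) at P24, and 0.14 in each set at P18. The sum of both hepcidins put 60.1% of P24 cells above the highest P18 cell.

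Across the 12 ages, Hamp ran through a trough. It stood at 1022 CPM at P3 and 270.6 CPM at P6, then between 8.90 and 13.4 CPM at P9, P12, P15 and P18, and at 526.5 CPM at P30 and 1736 CPM at P60 after the 886 CPM of P24. Hamp2 peaked before the trough at 390 CPM at P3 and stood at 2134 CPM at P30. In the test over pools Hamp averaged 1136 ± 738 CPM after the break and 9.30 ± 0.972 CPM before it (SD, n = 3 pools each; log2 difference 6.93 ± 0.59 SE, edgeR adjusted p = 0.0438). Hamp2 averaged 1640 ± 538 CPM after it and 11.4 ± 6.12 CPM before (7.17 ± 0.62 SE, edgeR adjusted p = 0.0438). Over the alternatives the adjusted p of Hamp ran from 1.59e-63 to 0.238, and it was over the threshold without P12, without P15 and with the spike-poor cells alone (0.0537).

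**Figure D1:**
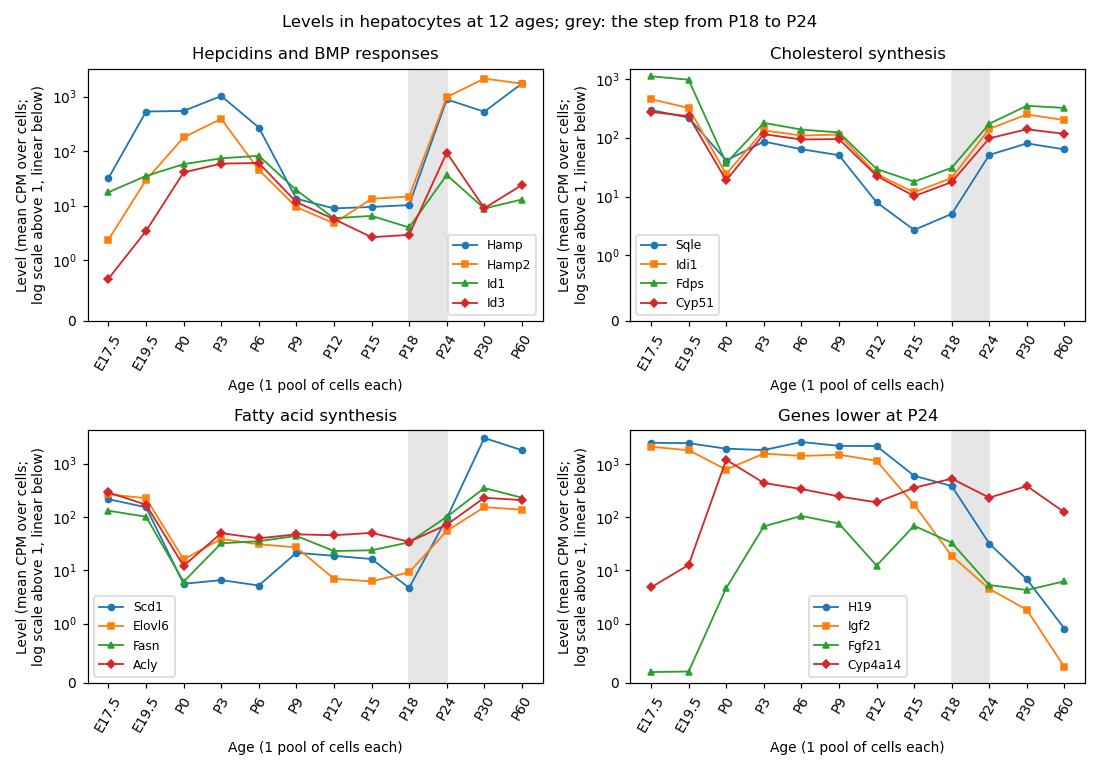
Levels of 16 genes at 12 ages, from E17.5 to P60, as mean CPM over the cells of 1 pool per age (y axis on a log scale above 1 CPM and linear below), with the step from P18 to P24 in grey. Hamp and Hamp2 lie between 4.74 and 14.7 CPM from P9 to P18 and between 526.5 and 2134 CPM from P24 on. Sqle, Idi1, Fdps and Cyp51 are higher at P24 than at P18, Scd1 reaches 3030 CPM only at P30, and H19 and Igf2 descend from P12 onward.

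The nuclei of the series gave another reading of the hepcidins. In 2N nuclei Hamp was 607 CPM at P60 and 304.1 CPM at P18, and in 4N nuclei 679 CPM at P60 and 560 CPM at P18. Hamp2 was lower in P60 nuclei, at 46.3 CPM against 85.9 CPM at P18 in 2N nuclei and at 62.7 CPM against 203.7 CPM at P18 in 4N nuclei. The P18 nuclei thus held Hamp at 304.1 and 560 CPM, where P18 cells had 10.2 CPM, with the caution that nuclear and whole-cell CPM have different totals. Nuclei of P24 are not among the samples, so the step itself could not be read there.

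Of the genes that answer to BMP signalling, the 4 that were compared, picked with earlier results of these data known, were each at least 2-fold higher at P24. Id3, an inhibitor of helix-loop-helix factors, had a lowest, median and highest cell of 0, 57.2 and 543 CPM at P24, against 0, 0 and 46.7 CPM at P18. Its level was 93.7 CPM at P24 and 2.92 CPM at P18 (log2 difference 4.60), and 97 P24 cells lay above the highest P18 cell. By set Id3 was 63.27 CPM (spike-rich) and 158.2 CPM (spike-poor) at P24, against 1.774 CPM (spike-rich) and 5.171 CPM (spike-poor) at P18. Runs of spike-rich P24 cells also differed among themselves, between 19.26 and 142.4 CPM, and all P24 runs lay above the highest P18 run of 5.284 CPM. Id1, the classical BMP target of the liver, was at 36.5 CPM at P24 and 3.98 CPM at P18 (2.91). Smad7, which feeds back on the SMAD pathway, was at 10.01 CPM at P24 and 2.59 CPM at P18 (1.62), and Id2 at 301.1 CPM and 147.3 CPM (1.03, with 0.78 between the spike-rich sets). Smad6, another feedback SMAD, was too low to be compared, at 1.12 CPM at P24 and 0.320 CPM at P18.

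Unlike the hepcidins, Id3 and Id1 were again low at the next age, at 8.98 CPM and 8.86 CPM at P30. Neither was called in the test over pools (edgeR adjusted p = 0.107 for Id3 and 0.124 for Id1). Over the thinned P24 cells the Pearson correlation of Hamp was 0.44 with Id3 and 0.24 with Id1, and over the thinned P18 cells it was −0.01 and −0.08. Within the P24 sets it was 0.25 (spike-rich) and 0.36 (spike-poor) with Id3, and 0.25 and 0.30 with Id1. The transcript of Bmp6, the iron-regulated ligand made mainly by liver endothelial cells, had 3 counts over all P24 cells and 0 over all P18 cells, which is too few to compare.

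The receptor for iron-laden transferrin went the other way. Tfrc had a lowest, median and highest cell of 0, 19.8 and 115.2 CPM at P24, against 0, 80.6 and 335.5 CPM at P18, so that the ranges overlapped while 97.8% of P24 cells lay below the P18 median. Its level was 23.8 CPM at P24 and 94.8 CPM at P18, a log2 difference of −1.95, with −1.98 between the spike-rich and −1.90 between the spike-poor sets. Tfrc ran from 15.77 to 33.43 CPM over the P24 runs and from 59.03 to 126.7 CPM over the P18 runs, and its edgeR adjusted p over the pools was 0.0571. Of the 29 compared genes of iron and metal handling, 4 were at least 2-fold higher (Hamp, Hamp2, Id1 and Smad7) and 1 lower (Tfrc). The remaining iron genes were within 2-fold in the pooled cells. Of all 29, 4 were at least 2-fold higher and 2 lower between the spike-rich sets, and 7 and 3 between the spike-poor ones. The second transferrin receptor Tfr2, an iron sensor, was at 220.5 CPM at P24 and 194.6 CPM at P18, and the exporter ferroportin (Slc40a1) at 112.1 CPM and 85.9 CPM. The ferritin heavy chain Fth1 was at 3421 CPM at P24 and 3899 CPM at P18, and transferrin (Trf) at 6574 CPM and 9216 CPM.

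**Figure D2:**
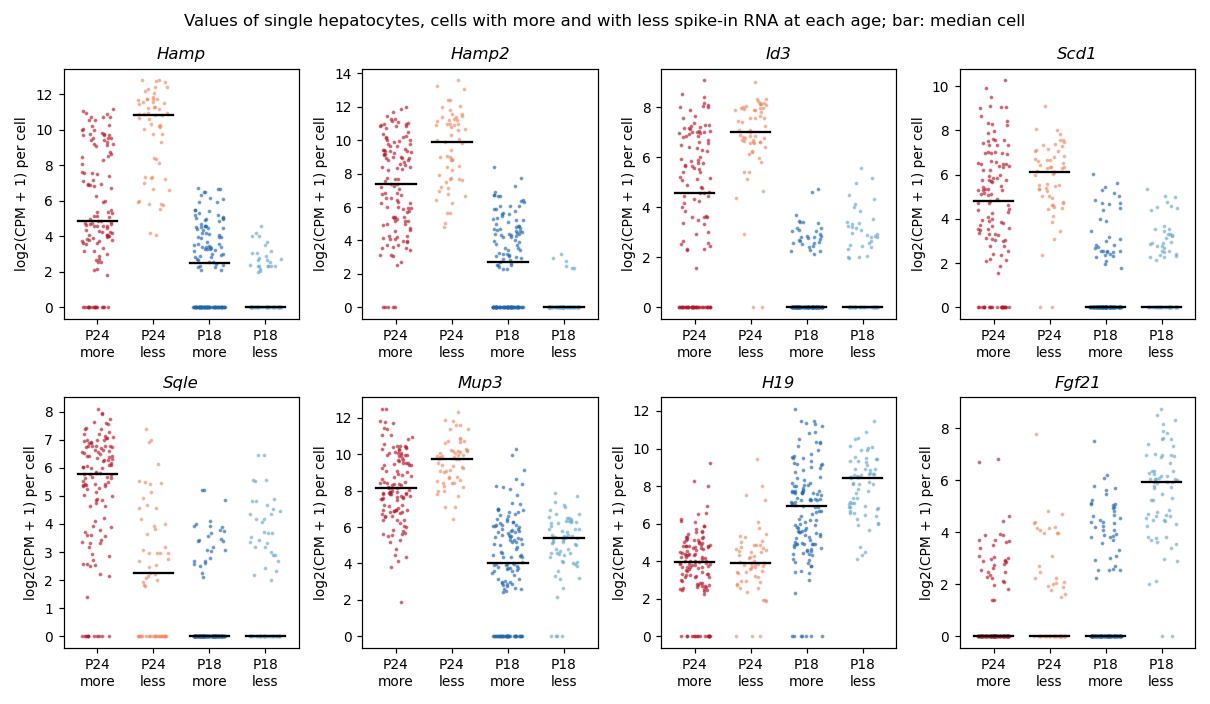
Values of 8 genes in single hepatocytes as log2(CPM + 1), spike-rich (more) and spike-poor (less) P24 cells in red and orange left of spike-rich and spike-poor P18 cells in dark and light blue, 1 point per cell, and a black bar at the median cell of each set. Both P24 medians lie above both P18 medians for Hamp, Hamp2, Id3, Scd1, Sqle and Mup3 and below both for H19, the spike-poor P24 median of Sqle lies far below the spike-rich one, and high Fgf21 cells gather in the spike-poor P18 set.

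Cholesterol synthesis was higher at P24 in the pooled cells, by an amount that depended on which sets were paired. The summed level averaged 2886 CPM (spike-rich) and 1529 CPM (spike-poor) at P24, against 789.4 CPM (spike-rich) and 1359 CPM (spike-poor) at P18. All 25 listed genes of sterol synthesis and uptake were compared, all 25 were higher at P24, and 17 of them at least 2-fold, with a median log2 difference of 1.39 against 0.17 over all compared genes. Between the spike-rich sets 24 of the 25 were at least 2-fold higher (median 2.07, against 0.24 over all compared genes). Between the spike-poor sets 3 were at least 2-fold higher, 13 were above 0 and 12 below it (median 0.02, against 0.07 over all). In 12 of the 25 both P24 sets lay above both P18 sets, and in 0 below them. With TMM factors 15 were at least 2-fold higher and all 25 above 0. In the test over pools 5 of the 25 were called higher after the break and all 25 were higher at an unadjusted p under 0.05, a level that 1343 of the 12364 tested genes reached in that direction. None of the 5 was called with the spike-poor cells alone.

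Promoters of 3 of these enzymes are shown because a CCAAT-type box, the element bound by the factor NF-Y that works beside SREBP, is frequent among them. Hmgcs1 makes the precursor of mevalonate, Idi1 isomerises the isoprene unit and Msmo1 removes methyl groups from the sterol ring. Capitals mark GCCAAT on either strand (ATTGGC is its reverse complement) and TCACNCCAC, a form of the sterol regulatory element (RefSeq, GRCm38.p6, Hmgcs1 chr13:119690101-119690400 on the plus strand, Idi1 chr13:8885356-8885655 on the plus strand and Msmo1 chr8:64733529-64733828 on the minus strand).
Hmgcs1: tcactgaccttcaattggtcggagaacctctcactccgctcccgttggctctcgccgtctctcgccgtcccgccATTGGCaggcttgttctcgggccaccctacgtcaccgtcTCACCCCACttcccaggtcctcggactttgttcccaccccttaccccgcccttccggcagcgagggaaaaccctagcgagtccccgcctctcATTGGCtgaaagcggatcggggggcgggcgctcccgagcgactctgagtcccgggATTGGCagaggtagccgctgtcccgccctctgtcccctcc
Idi1: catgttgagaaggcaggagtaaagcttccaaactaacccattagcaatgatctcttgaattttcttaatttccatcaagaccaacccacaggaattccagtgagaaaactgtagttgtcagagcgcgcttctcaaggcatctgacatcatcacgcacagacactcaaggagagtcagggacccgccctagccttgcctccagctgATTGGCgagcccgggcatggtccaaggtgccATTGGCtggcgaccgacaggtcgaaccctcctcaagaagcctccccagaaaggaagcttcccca
Msmo1: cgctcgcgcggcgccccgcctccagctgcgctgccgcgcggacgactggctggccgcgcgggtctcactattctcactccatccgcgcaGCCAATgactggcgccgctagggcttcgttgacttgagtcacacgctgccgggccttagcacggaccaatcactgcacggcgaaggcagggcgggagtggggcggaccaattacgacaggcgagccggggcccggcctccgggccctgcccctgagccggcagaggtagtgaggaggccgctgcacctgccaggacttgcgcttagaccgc
GCCAAT was found on either strand in the windows of 13 of the 17 cholesterol genes in the promoter table (76.5%), against 22.3% of compared genes and 16.7% of all 27025 windows. The Hmgcs1 window held 3 matches, that of Idi1 held 2 and that of Msmo1 held 1. TCACNCCAC, which shares no base with a GCCAAT match in the Hmgcs1 window, was found in 1 of the 17 (Hmgcs1) and in 1.44% of all windows. A match is a string of letters in this window and says nothing on binding. Fdps, Fdft1, Sqle and Stard4 were among the members not in the promoter table.

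Sqle, squalene epoxidase, which commits squalene to sterols, had a lowest, median and highest cell of 0, 30.4 and 273.4 CPM at P24, against 0, 0 and 86.4 CPM at P18. Of all counts of a pool it took 44.5 CPM (42.6 to 46.4) at P24 and 4.83 CPM (4.14 to 5.61) at P18, and its level was 50.9 CPM at P24 and 5.07 CPM at P18 (log2 difference 3.10). A Sqle count was found in 82.02% of P24 cells (75.6 to 87.4%) and 30.6% of P18 cells (24.3 to 37.6%), and in 63.3% and 17.7% of the thinned cells. By set Sqle was 67.06 CPM (spike-rich) and 16.64 CPM (spike-poor) at P24, against 2.493 CPM (spike-rich) and 10.16 CPM (spike-poor) at P18. The P24 sets were thus higher than both P18 sets, but the log2 difference was 4.28 between the spike-rich sets and 0.66 between the spike-poor ones.

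Of the mevalonate enzymes, Hmgcs1 was at 196.8 CPM at P24 and 74.3 CPM at P18. Its sets disagreed, with log2 differences of 2.38 between the spike-rich and −0.46 between the spike-poor sets. Idi1 was at 141.1 CPM at P24 and 20.8 CPM at P18, and Fdps, which makes farnesyl diphosphate, at 172.6 CPM and 30.8 CPM. Of the later steps, Msmo1 was at 181.2 CPM at P24 and 29.4 CPM at P18, Nsdhl at 41.8 CPM and 7.04 CPM, and Cyp51, lanosterol demethylase, at 97.7 CPM and 17.6 CPM. Fdps and Nsdhl were past 2-fold in both (3.04 and 3.03 between the spike-rich sets, and 1.19 for each between the spike-poor ones), while Idi1, Msmo1 and Cyp51 were at 3.86, 3.63 and 3.47 between the spike-rich sets and at 0.41, 0.26 and 0.38 between the spike-poor ones. The 8 members under 2-fold, among them Hsd17b7, Stard4, Fdft1, Srebf2, Ebp, Sc5d and Acat2, had log2 differences between 0.62 (Acat2) and 0.999 (Hsd17b7).

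Regulators of the pathway were also higher in the pooled cells. Insig1, which holds SREBP back when sterols are plentiful, was at 136.9 CPM at P24 and 53.04 CPM at P18 (log2 difference 1.35, with 1.92 between the spike-rich and 0.32 between the spike-poor sets). Srebf2, which encodes the main sterol-regulated SREBP, was at 19.1 CPM at P24 and 10.98 CPM at P18 (0.75), and its sets disagreed in sign, with −0.60 between the spike-poor ones.

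Cell by cell, the summed level of the 25 cholesterol genes was 870 to 7694 CPM at P24 (median 2109) and 257.3 to 3714 CPM at P18 (median 942). Nearly all P24 cells (99.4%) lay above the P18 median, and 28 lay above the highest P18 cell. The median of the sum was 2603 CPM in spike-rich and 1462 CPM in spike-poor P24 cells, against 784.1 CPM in spike-rich and 1283 CPM in spike-poor P18 cells. Over runs of cells by number the mean sum was 1577 to 3334 CPM at P24 and 611.5 to 1410 CPM at P18. The sum therefore separated the runs of the 2 ages, although the spike-poor sets lay close to each other. Sqle and Idi1 had a Pearson correlation of 0.53 over spike-rich and 0.33 over spike-poor P24 cells after thinning, and of −0.03 and 0.02 over those of P18. In the test over pools Idi1 averaged 185.2 ± 62.8 CPM after the break and 20.4 ± 5.05 CPM before it (SD, n = 3 pools each; log2 difference 3.18 ± 0.32 SE, edgeR adjusted p = 0.0461). Msmo1 averaged 198.6 ± 45.2 CPM after it and 34.2 ± 7.11 CPM before (2.54 ± 0.23 SE, edgeR adjusted p = 0.0445). Fdps and Cyp51 were called with edgeR adjusted p-values of 0.0482, and Sqle was not (0.0511). With the spike-poor cells alone the edgeR adjusted p was 0.127 for Idi1, 0.134 for Msmo1, 0.0852 for Fdps and 0.129 for Cyp51.

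Sqle was also high at the earliest ages. At E17.5 the level of Sqle was 294.2 CPM, in a pool where Xist had a count in 65.17% of cells, against 1.005% at P18, and 85.9 CPM at P3, before the 7.999 CPM of P12, the 2.71 CPM of P15 and the 5.07 CPM of P18. It was at 79.9 CPM at P30 and 63.2 CPM at P60.

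Downstream of cholesterol, Cyp7a1, the rate-limiting enzyme of bile acid synthesis, had a lowest, median and highest cell of 0, 56.7 and 1260 CPM at P24, against 0, 16.4 and 425 CPM at P18. Its level was 146.3 CPM at P24 and 41.8 CPM at P18 (log2 difference 1.78), and its sets overlapped, at 196.3 CPM (spike-rich) and 40.18 CPM (spike-poor) at P24 against 47.89 CPM (spike-rich) and 29.64 CPM (spike-poor) at P18. Cyp7a1 was called in the test over pools (134.4 ± 8.38 CPM after the break and 45.9 ± 7.04 CPM before it, SD, n = 3 pools each; 1.55 ± 0.15 SE, edgeR adjusted p = 0.0445; 0.243 with the spike-poor cells alone). Of 25 genes of bile acid synthesis and transport, 3 were at least 2-fold higher and 0 lower. The other members past 2-fold were Slco1a1, an organic anion carrier (24.1 CPM at P24 and 5.33 CPM at P18), and Baat, which joins bile acids to taurine (245.3 CPM and 118.4 CPM). Slco1a1 was past 2-fold in each pairing of sets, although 2 of its 6 P24 runs of cells lay below every P18 run.

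Fatty acid synthesis was higher in part of its members, and again more so between the spike-rich sets. Of 19 compared genes, 7 were at least 2-fold higher and 0 lower, with a median log2 difference of 0.53 against 0.17 over all compared genes. With TMM factors 4 were at least 2-fold higher. Between the spike-rich sets 12 were at least 2-fold higher and 0 lower (median 1.10), and between the spike-poor sets 2 were higher and 4 lower (median −0.33). The 7 of the pooled cells were Scd1, Elovl6, Acss2, Fasn, Mid1ip1, Thrsp and Acly.

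Scd1, stearoyl-CoA desaturase, which makes monounsaturated fatty acids and is on chromosome 19 (GRCm38 chr19:44394455-44407879, minus strand), had a lowest, median and highest cell of 0, 39.9 and 1247 CPM at P24, against 0, 0 and 64.8 CPM at P18. Of the P24 cells, 69 lay above the highest P18 cell, and the rest overlapped with P18 cells. Scd1 was alike in the sets of an age, at 97.06 CPM (spike-rich) and 89.31 CPM (spike-poor) at P24, against 4.136 CPM (spike-rich) and 5.701 CPM (spike-poor) at P18. Its lowest run of cells at P24 was at 51.76 CPM and its highest at P18 at 7.656 CPM. Of all counts of a pool it took 97.8 CPM (94.98 to 100.6) at P24 and 4.11 CPM (3.47 to 4.83) at P18, and its level was 94.6 CPM at P24 and 4.66 CPM at P18 (log2 difference 4.08). A Scd1 count was found in 86.5% of P24 cells (80.6 to 91.2%) and 34.2% of P18 cells (27.6 to 41.2%), and in 70.1% and 14.6% of the thinned cells. The later ages went further, with 3030 CPM at P30 and 1784 CPM at P60, so that P24 stood far nearer to P18 than to P30 on the CPM scale. In the test over pools Scd1 was not called (6.998 ± 1.35 SE, edgeR adjusted p = 0.0824), its pools after the break spreading by 1460 CPM around 1654 CPM (SD, n = 3 pools). In nuclei it was 405 CPM at P60 and 19.4 CPM at P18 (2N).

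Of the remaining enzymes, Elovl6, which lengthens palmitate, was at 54.6 CPM at P24 and 9.12 CPM at P18 (log2 difference 2.46, with 2.94 between the spike-rich and 1.85 between the spike-poor sets) and was called over the pools (3.88 ± 0.43 SE, edgeR adjusted p = 0.0482). Fasn, fatty acid synthase, was at 100.3 CPM at P24 and 33.3 CPM at P18 (1.56, with 2.16 and 0.80), and Acly, which makes cytosolic acetyl-CoA, at 71.3 CPM and 34.2 CPM (1.04, with 1.10 and 0.86). Mid1ip1, a partner of acetyl-CoA carboxylase, turned sign with the set, at 2.01 between the spike-rich and −0.38 between the spike-poor sets. Of the transcription factor genes of the pathway, Srebf1 was at 102.6 CPM at P24 and 76.6 CPM at P18 (0.42, with 1.10 and −1.03 by set), and Mlxipl, which encodes ChREBP, at 73.9 CPM and 73.3 CPM (0.01). The desaturases Fads1 and Fads2 and the elongase Elovl5, which serve polyunsaturated fatty acids, had pooled log2 differences of 0.21, −0.37 and −0.72. They were at 0.85, 0.07 and −0.45 between the spike-rich sets and at −1.19, −1.47 and −1.59 between the spike-poor ones. Sqle and Scd1 had a Pearson correlation of −0.19 over spike-rich and 0.07 over spike-poor P24 cells after thinning.

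Fatty acid oxidation and ketone synthesis were lower at P24. Of 34 compared genes, 9 were at least 2-fold lower and 0 higher, 33 were below 0, and the median log2 difference was −0.61. The 19 compared PPARA target genes, which share members with that list, had 6 at least 2-fold lower, 0 higher and a median of −0.65. The sets were alike here: in 29 of the 34 oxidation genes both P24 sets lay below both P18 sets, against 6.005% of all compared genes, and the median was −0.45 between the spike-rich and −0.70 between the spike-poor sets. Of the PPARA target genes 13 of 19 lay below in both. In single cells the summed level of the oxidation genes was 4010 to 17490 CPM at P24 (median 10370) and 9506 to 21870 CPM at P18 (median 14300), and 58 P24 cells lay below the lowest P18 cell. Its mean over runs of cells was 8914 to 10790 CPM at P24 and 12420 to 16350 CPM at P18.

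The enzymes past 2-fold were mostly those of peroxisomes and microsomes. Acot3, a peroxisomal thioesterase, was at 6.61 CPM at P24 and 47.5 CPM at P18 (log2 difference −2.67), and its level was 94.63 CPM in spike-poor and 23.55 CPM in spike-rich P18 cells. Runs of cells overlapped for Acot3, from 2.695 to 14.45 CPM at P24 and from 3.949 to 97.75 CPM at P18. Cyp4a31 had a median cell of 15.9 CPM at P24 and 102.9 CPM at P18 (log2 difference of the levels −2.17), with every run of P24 cells between 20.75 and 29.08 CPM and every run of P18 cells between 89.47 and 148.8 CPM. Cyp4a10 was at 262.2 CPM at P24 and 612.5 CPM at P18 (−1.22) and Cyp4a14 at 233.3 CPM and 531.5 CPM (−1.18), though between the spike-poor sets these were at −0.62 and −0.12. Runs of cells overlapped for both: Cyp4a10 ran from 43.73 to 471.4 CPM at P24 and from 281.7 to 934.3 CPM at P18. Cyp4a14 ran from 93.19 to 423.5 CPM at P24 and from 175.9 to 941.3 CPM at P18. All of these Cyp4a genes encode fatty acid omega-hydroxylases. The mitochondrial core differed less: Hadha, of the trifunctional protein, was at 221.3 CPM at P24 and 330.4 CPM at P18 (−0.58). Cpt1a, the gate of fatty acids into mitochondria, had a log2 difference of 0.02. Ppara itself was at 140.4 CPM at P24 and 171.9 CPM at P18 (−0.29).

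Fgf21, a PPARA-driven hormone of the fasted and suckling liver, had a lowest, median and highest cell of 0, 0 and 218.6 CPM at P24, against 0, 6.47 and 428 CPM at P18. Its level was 5.32 CPM at P24 and 33.2 CPM at P18 (log2 difference −2.43), with a count in 34.3% of P24 cells (27.3 to 41.7%) and 54.3% of P18 cells (47.1 to 61.3%), and in 12.4% and 38.5% of the thinned cells. The P18 level came mostly from the spike-poor set: Fgf21 was 3.959 CPM (spike-rich) and 8.212 CPM (spike-poor) at P24, against 8.615 CPM (spike-rich) and 81.51 CPM (spike-poor) at P18. The log2 difference was −0.96 between the spike-rich sets. Pdk4, which spares glucose by blocking pyruvate oxidation, was at 1.68 CPM at P24 and 14.8 CPM at P18 (−2.56, with −1.25 between the spike-rich and −3.70 between the spike-poor sets). Ffar4, a receptor for long-chain fatty acids, was at 2.55 CPM at P24 and 23.4 CPM at P18 (−2.78), of which the spike-rich P18 cells held 34.04 CPM and the spike-poor ones 2.545 CPM. In the test over pools 0 of 35 oxidation genes were called by edgeR, and 19 were lower at an unadjusted p under 0.05. Of the 12364 tested genes, 1495 reached that level in that direction. Levels did not all stay down: Cyp4a14 was at 386 CPM at P30, and Acot3 at 37.02 CPM.

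**Figure D3:**
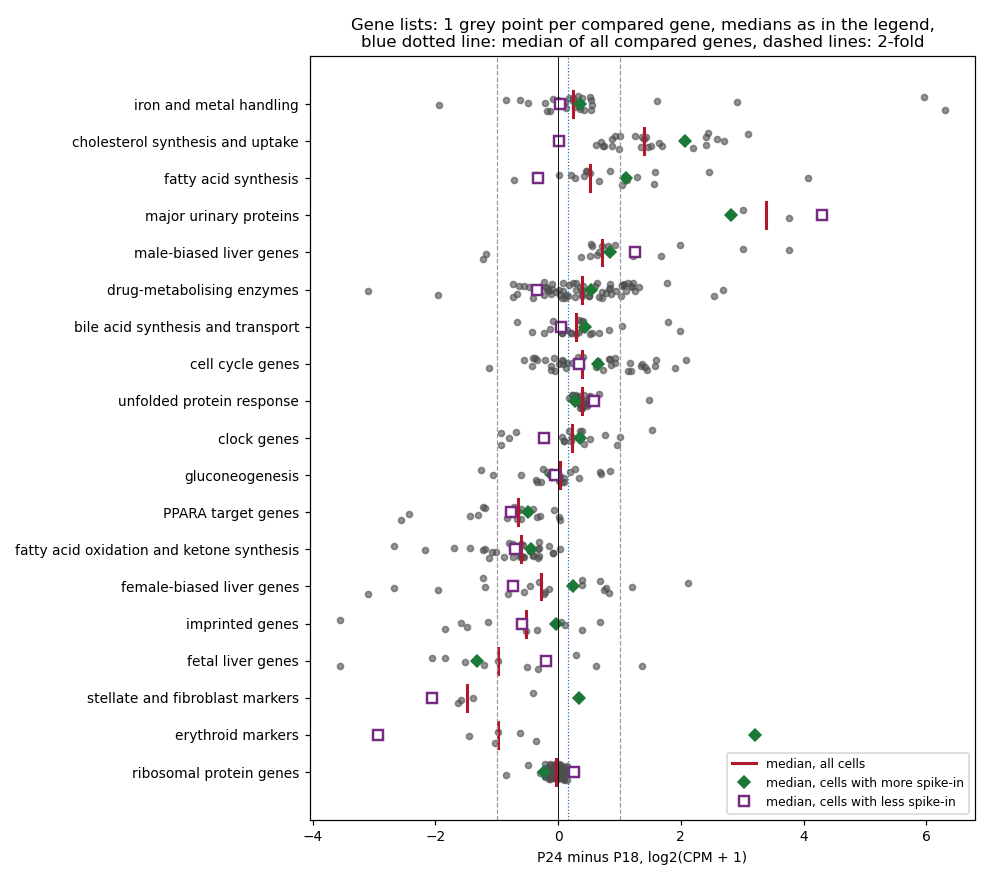
Differences of log2(CPM + 1), P24 minus P18, of the compared genes of 19 lists (grey points), with the list's median over all cells (red bar), between the spike-rich sets (green diamond) and between the spike-poor sets (open square), the median of all 8093 compared genes (0.17) as a blue dotted line and dashed lines at 2-fold. The medians of the cholesterol genes spread from 0.02 (spike-poor) to 2.07 (spike-rich), those of the oxidation genes lie between −0.70 and −0.45, and those of stellate and erythroid markers fall on both sides of 0.

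Sugar and fasting genes gave smaller groups. Of 19 gluconeogenesis genes, 2 were at least 2-fold lower and 0 higher: G6pc, the last enzyme of glucose output, at 232.1 CPM at P24 and 488 CPM at P18, and Igfbp1, an insulin-repressed binding protein of IGF, at 372 CPM and 889 CPM. Between the spike-poor sets their log2 differences were −0.22 and −0.58, within 2-fold, and 4 of the 19 were at least 2-fold higher. Socs2, a feedback inhibitor of growth hormone signalling, was at 24.3 CPM at P24 and 65.99 CPM at P18 (log2 difference −1.41), and Igf1, the growth factor that hormone induces, at 825 CPM and 1123 CPM (−0.44). G6pc was back at 937 CPM at P30.

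H19 was the compared gene with the lowest difference (GRCm38 chr7:142575529-142578143, minus strand). Its lowest cell, lower quartile, upper quartile and highest cell were 0, 6.76, 27.5 and 683 CPM at P24, against 0, 46.7, 408 and 4430 CPM at P18, and 96.6% of P24 cells lay below the P18 median. The summed H19 counts were 1486 (1411 to 1564) at P24 and 13948 (13717 to 14181) at P18, and the level was 31.95 CPM at P24 and 386 CPM at P18 (log2 difference −3.55). A count was found in 89.3% of P24 cells (83.8 to 93.4%) and 96.5% of P18 cells (92.9 to 98.6%), and in 49.7% and 89.1% of the thinned cells, so the difference was one of level in most cells more than of cells without H19. The sets of each age were alike: H19 was 29.1 CPM (spike-rich) and 37.98 CPM (spike-poor) at P24, against 360.2 CPM (spike-rich) and 437.2 CPM (spike-poor) at P18. Its runs of cells lay between 13.05 and 58.59 CPM at P24 and between 182.6 and 556.3 CPM at P18. The descent had begun before, with 2181 CPM at P12 and 602 CPM at P15, and went on to 6.79 CPM at P30 and 0.915 CPM at P60. Over the pools H19 was not called (−6.43 ± 1.27 SE, edgeR adjusted p = 0.0824).

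Igf2, the fetal growth factor beside it, was at 4.50 CPM at P24 and 18.7 CPM at P18 (log2 difference −1.84), after 173.2 CPM at P15, and it was lower in both P24 sets than in both P18 sets. Of 11 compared imprinted genes, 5 were at least 2-fold lower and 0 higher, against 0.729% and 1.87% of all compared genes. The 5 were H19, Igf2, Grb10, which brakes insulin signalling, Cdkn1c, which brakes the cell cycle, and Dcn. Grb10 was at 6.04 CPM at P24 and 18.7 CPM at P18, and Cdkn1c at 5.92 CPM and 14.2 CPM. Dcn, decorin, is also a marker of stellate cells and fibroblasts, and was at 40.1 CPM in spike-poor P18 cells but at 0.721 CPM in the spike-rich ones, where P24 was higher (log2 difference 0.49). Grb10 and Cdkn1c were lower in both P24 sets, by under 2-fold between the spike-poor ones (−0.53 and −0.58). Slc38a4, an amino acid carrier, was the imprinted gene with the highest difference (636 CPM at P24 and 397 CPM at P18, 0.68).

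Of 11 compared fetal liver genes, 5 were at least 2-fold lower and 1 higher, with H19 and Igf2 counted both here and among the imprinted genes. Besides H19 and Igf2, Fabp5, a fatty acid binding protein, was at 29.3 CPM at P24 and 124.2 CPM at P18, and Gpc3, a cell surface proteoglycan of fetal liver, at 13.6 CPM and 40.6 CPM. Afp, the albumin-like protein of fetal plasma, was at 52.5 CPM at P24 and 104.2 CPM at P18 (−0.98), after 3228 CPM at P12 and 179.1 CPM at P15, and its sets disagreed (−1.32 between the spike-rich and 3.34 between the spike-poor sets). The member that was higher was Tff3, a mucosal repair peptide, at 100.5 CPM at P24 and 38.5 CPM at P18. Among other genes of the widest negative differences were Hsd3b1, a steroid-forming enzyme (4.17 CPM at P24 and 18.4 CPM at P18), and Cd63, a membrane protein of late endosomes (31.6 CPM and 115.2 CPM).

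The major urinary proteins, pheromone carriers that adult male liver secretes in bulk, were higher at P24. Mup3 had a lowest, median and highest cell of 2.63, 429 and 5753 CPM at P24, against 0, 26.4 and 1229 CPM at P18, and its level was 816.5 CPM and 59.4 CPM (log2 difference 3.76). By set Mup3 was 677.4 CPM (spike-rich) and 1112 CPM (spike-poor) at P24, against 63.11 CPM (spike-rich) and 52.15 CPM (spike-poor) at P18. Mup20, or darcin, was at 143.8 CPM at P24 and 16.99 CPM at P18 (3.01), and all P24 runs of cells were above all P18 runs for both genes. Both were far below their P60 levels of 10580 CPM and 7277 CPM. Mup genes are near copies of one another, and how shared reads were counted is not given, so only their sum is firm: it was 977 CPM per cell at P24 and 81.96 CPM at P18.

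Genes with a known sex bias in adult liver differed in both directions. Of 17 compared male-biased genes, 6 were at least 2-fold higher and 2 lower, and of 22 compared female-biased genes, 2 were higher and 5 lower. By set the male-biased genes had 7 higher and 2 lower (spike-rich) and 9 and 1 (spike-poor), and the female-biased ones 3 and 5 (spike-rich) and 4 and 10 (spike-poor). Cyp2d9, a male-biased hydroxylase, was at 341 CPM at P24 and 145.5 CPM at P18, and Serpina3k, a protease inhibitor, at 3424 CPM and 1463 CPM. Of the female-biased cytochromes, Cyp3a16 was at 1.97 CPM at P24 and 24.4 CPM at P18, and Cyp3a44 at 45.6 CPM and 180 CPM, while Cyp2c40 was higher in the pooled cells, at 350.3 CPM and 152.2 CPM. The runs of cells disagreed for Cyp2c40, from 21.3 to 765.6 CPM at P24 and from 67.49 to 261.1 CPM at P18. Of its 6 P24 runs, 3 lay above every P18 run and 2 below every one. Several of the sex-biased genes belong to clusters of near copies, so reads may be shared.

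Drug-metabolising enzymes differed by set. Of 67 compared, 15 were at least 2-fold higher and 2 lower in the pooled cells (22.39% and 2.985%, with a median of 0.38), and with TMM factors 7 and 3. Between the spike-rich sets 23 were higher and 2 lower (median 0.53), and between the spike-poor sets 6 and 10 (median −0.34). Cyp2c54, a P450 enzyme, was at 229.3 CPM at P24 and 34.8 CPM at P18 (log2 difference 2.69), with a median cell of 171.4 CPM and 8.76 CPM, and both sets gave a like difference (2.76 and 2.65). Gsta2, a glutathione transferase, was at 48.7 CPM at P24 and 7.52 CPM at P18 (2.54, with 3.15 between the spike-rich and 0.96 between the spike-poor sets), and Cyp1a2 at 1415 CPM and 686 CPM (1.04, with 1.44 and 0.02). Gsta1, its close relative, was too low to be compared at P24 and P18 but was called over the pools (8.97 ± 3.94 CPM after the break and 0.117 ± 0.0987 CPM before it, SD, n = 3 pools each; 6.08 ± 0.62 SE, edgeR adjusted p = 0.0461).

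Of 30 compared acute phase and mucosal defence genes, 4 were at least 2-fold higher and 1 lower, a count of lower genes that was 0 without the cells with markers of other cells. Pigr, the receptor that carries immunoglobulin A into bile, was at 189.1 CPM at P24 and 32.4 CPM at P18 (log2 difference 2.51, with 3.08 between the spike-rich and 0.94 between the spike-poor sets), and Orm1, an acute phase glycoprotein, at 362 CPM and 70.99 CPM (2.33, with 1.83 and 2.93). Saa1, the acute phase protein with the strongest known response to inflammation, was at 195.9 CPM at P24 and 447.5 CPM at P18 (−1.19), a difference held by the spike-poor P18 cells: it was 184.8 CPM (spike-rich) and 219.4 CPM (spike-poor) at P24, against 162.6 CPM (spike-rich) and 1009 CPM (spike-poor) at P18. At P30 the level of Saa1 was 1995 CPM.

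Clock genes are given because they differ with the hour of collection, which the labels do not state. Of 18 compared, 2 were at least 2-fold higher (Ciart, 22.1 CPM at P24 and 6.998 CPM at P18, and Per3, 39.99 CPM and 19.47 CPM). In 0 of the 18 both P24 sets lay above both P18 sets, against 27.28% of all compared genes. In 2 of the 18 they lay below (11.11%, against 6.005% of all). Per3 turned sign with the set, at 2.17 between the spike-rich and −0.999 between the spike-poor sets. Arntl, which encodes BMAL1, was at 7.60 CPM at P24 and 15.5 CPM at P18 (log2 difference −0.94), and Cry1 at 14.1 CPM and 27.6 CPM (−0.92). Cry1 ran from 6.739 to 22.23 CPM over the P24 runs of cells and from 24.84 to 32.87 CPM over the P18 runs. The parts of age, hour, food intake and set in the cholesterol, fatty acid and clock genes cannot be told apart with 1 pool per age.

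Mitotic genes were higher in the P24 pool. Of 40 compared cell cycle genes, 11 were at least 2-fold higher and 1 lower, and with TMM factors 5 and 1. By set 15 were higher and 1 lower between the spike-rich cells, and 4 and 4 between the spike-poor ones. Over the pools after and before the break none of 48 was called by edgeR, and 0 were higher and 25 lower at an unadjusted p under 0.05. Of the 12364 tested genes, 1343 were higher and 1495 lower at that level. Ccnb2, a mitotic cyclin, was at 33.3 CPM at P24 and 7.05 CPM at P18 (log2 difference 2.09), with a median cell of 0 CPM at both ages and a highest cell of 588 CPM and 316.5 CPM. Mki67, the proliferation antigen, was at 30.8 CPM at P24 and 10.9 CPM at P18 (1.42). After thinning, 23 P24 cells (12.99%, 8.42 to 18.9%) and 13 P18 cells (6.77%, 3.65 to 11.3%) had a count in at least 6 of 20 mitotic genes. The intervals overlap. Before thinning these shares were 39.33% at P24 and 15.08% at P18. By set the thinned shares were 14.17% (spike-rich) and 10.53% (spike-poor) at P24, against 6.154% (spike-rich) and 8.065% (spike-poor) at P18. The same share was 30.4% at P12, 19.1% at P15 and 2.24% at P30, so the P24 share was above those of P18 and P30. The gene that was lower was Cdkn1a, the p53-induced arrest protein p21, at 58.6 CPM at P24 and 129.9 CPM at P18 (−1.13), with −1.58 between the spike-rich and 0.96 between the spike-poor sets.

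Leaving out the cells that held counts in 6 or more mitotic genes before thinning (70 at P24 and 30 at P18) left 1.6% of genes at least 2-fold higher and 0.792% lower. Of 21 compared cell cycle genes, 0 were then at least 2-fold higher, which follows from leaving out cells by such genes and tests nothing. The rule also depends on depth, since cells with more counts, as at P24, more often hold a count in 6 such genes. Of the stress lists, all 30 genes of the unfolded protein response were above 0, as were 73.66% of all compared genes, with a median of 0.38 against 0.17 over all. Of these 22 were above 0 between the spike-rich sets (median 0.27) and 29 between the spike-poor ones (0.58). The 1 gene at least 2-fold higher was Derl3 (12.7 CPM at P24 and 3.89 CPM at P18), at −0.05 between the spike-rich sets and 3.90 between the spike-poor ones. Of 14 integrated stress response genes, 3 were at least 2-fold lower (Fgf21, Nupr1 and Atf5). Ribosomal protein genes (81 compared, median −0.04), proteasome subunits (37, median 0.06) and nuclear respiratory chain genes (74, median −0.15) had 0 members past 2-fold. By set the ribosomal medians were −0.23 (spike-rich) and 0.26 (spike-poor), and the respiratory ones −0.40 and 0.47.

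Markers of other cells were highest in the spike-poor P18 cells. The sum of all such markers had a median per cell of 626.6 CPM in spike-poor P18 cells and between 146.1 and 192.3 CPM in the other 3 sets. The 4 compared markers of stellate cells and fibroblasts were all below 0, 3 of them at least 2-fold, and Sparc was at 4.78 CPM at P24 and 16.9 CPM at P18. Of these 4, 3 were above 0 between the spike-rich sets (median 0.34), and between the spike-poor sets all 4 were at least 2-fold lower (median −2.05). Macrophage and erythroid markers had medians of 0.60 and 3.21 between the spike-rich sets and of −2.08 and −2.94 between the spike-poor ones. The sum of the 14 stellate and fibroblast markers was 0 to 382 CPM per cell at P24 and 0 to 654 CPM at P18. Erythroid markers summed to a median of 69.6 CPM per cell at P24 and 100.8 CPM at P18, with highest cells of 62750 CPM and 56290 CPM. Macrophage markers averaged 44.1 CPM per cell at P24 and 66.6 CPM at P18, and endothelial markers 24.1 CPM and 26.2 CPM. Without the 5 P24 cells and 20 P18 cells that held 1000 CPM or more of such markers, 2.01% of genes were at least 2-fold higher and 0.682% lower, and 17 of 25 cholesterol genes were at least 2-fold higher and 8 of 34 oxidation genes lower. Beyond that count, the part of other cells in the differences was not tested.

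Hepatocytes differ along the lobule, from the portal vein to the central vein, so the cells of each age were ordered by landmark genes and cut into 3 equal ranges, called periportal, middle and pericentral (59, 59 and 60 cells at P24 and 66, 66 and 67 cells at P18). They are ranges of a score and not cell types, and 27 P24 cells and 17 P18 cells lay within 0.1 of a cut. The spike-rich share of the cells was 71.19%, 69.49% and 63.33% in these ranges at P24, and 83.33%, 63.64% and 52.24% at P18, and its part in the values by range was not tested. Hamp was 880 CPM, 952 CPM and 829 CPM in these ranges at P24, in that order, and 9.89 CPM, 7.28 CPM and 13.5 CPM at P18. Scd1 was 47.7 CPM, 69.8 CPM and 165.1 CPM at P24, and 2.06 CPM, 4.65 CPM and 7.24 CPM at P18. Both ages had the pericentral range highest for Scd1.

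Cyp7a1 differed with position: it was 25.8 CPM, 155.6 CPM and 255.7 CPM at P24 from the periportal to the pericentral range, and 23.2 CPM, 46.3 CPM and 55.5 CPM at P18. Its log2 difference was 0.15 in the periportal range and 2.18 in the pericentral one. Sqle was 71.05 CPM, 53.7 CPM and 28.4 CPM at P24, and 6.47 CPM, 4.07 CPM and 4.68 CPM at P18. Mup3 was 1387 CPM, 540 CPM and 528 CPM at P24, and 96.3 CPM, 51.6 CPM and 30.7 CPM at P18. These positions are those of 1 pool at each age, and their differences were not tested.

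The cholesterol genes had medians of 1.55, 1.38 and 1.31 from periportal to pericentral, and the oxidation genes −0.43, −0.59 and −0.71. The cell cycle genes turned sign: their median was −0.79 in the periportal range, and 0.91 and 0.97 in the middle and pericentral ranges. In the periportal range 15 of 40 were at least 2-fold lower, as were 97 of all 8093 compared genes. Cdc20, below 0 in the periportal range, was at 0.082 there with 1 cut of the score for both ages. Of the cells with at least 6 mitotic genes, 3, 9 and 11 lay in the periportal, middle and pericentral ranges at P24, and 7, 3 and 3 at P18.

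**Figure D4:**
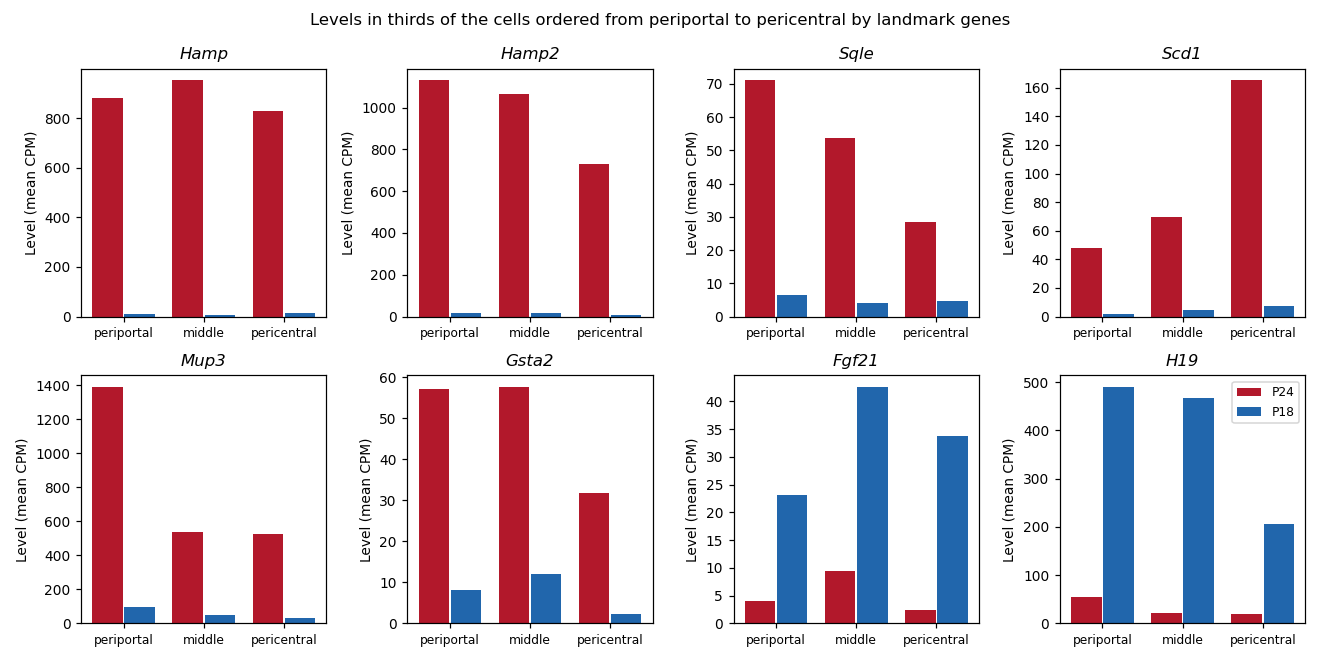
Levels of 8 genes (mean CPM) in the periportal, middle and pericentral ranges of the cells, P24 in red left of P18 in blue. Hamp is of like height in the 3 ranges at P24 (829 to 952 CPM), Scd1 is highest in the pericentral range (165.1 CPM), Mup3 and Sqle in the periportal range, and H19 is higher at P18 in each.

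Later ages and nuclei gave further readings of the same genes. Of the genes at least 2-fold higher at P24, 81.5% were also above their P18 level at P30 and 80.8% at P60, where 61.6% and 48.4% of all compared genes were. Of the 59 lower genes, 55 were also below it at P30 (93.2%) and 54 at P60 (91.5%), where 38.4% and 51.6% of all were. These counts share the P18 cells with the choice of the genes. Nuclei, which are separate samples from the cells, gave a reading of P60 against P18: in 2N nuclei 83.6% of the measured higher genes were higher at P60 and 37 of the 44 measured lower genes were lower (84.1%), where 45.8% of all measured compared genes were higher. In 4N nuclei 68.5% of the measured higher genes were higher and 30 of the 40 measured lower genes were lower, where 50.6% of all were higher.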

How the data were processed

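Whole-number read or molecule counts per gene and cell, as deposited by the authors for 40824 genes and 92 ERCC rows, were used. The submitters' processing notes name Bowtie2, TopHat2 2.1.0, HISAT2 2.1.0, HTSeq 0.6.0, SAMtools 1.3.1, Trimmomatic 0.39, UMI-tools 0.5.0, and featureCounts 1.5.3 and 2.0.0 with GRCm38/mm10, with no role or order. Which counted these cells, whether strand was used and whether counts are reads or molecules is not given in the sources used here.

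The 178 P24 and 199 P18 cells (177 and 192 after thinning) were scaled to counts per 1000000 counts (CPM) without ERCC rows and averaged over cells of an age. Genes averaging at least 5 CPM and a count in 10% of cells were compared on log2(CPM + 1). Shares were also taken after thinning to 50000 counts. Spike-rich and spike-poor sets come from the 1 break along the cell numbers that best split log10(ERCC percent + 0.01) by least squares, with at least 10 cells on each side, and runs from cutting the numbers into 6. Sums of counts of 6 ages were fitted with edgeR 4.0.16 (TMM, filterByExpr, quasi-likelihood, Benjamini-Hochberg; R 4.3.3), with DESeq2 1.42.0 as an alternative, and tested on simulated data. The SE printed with an edgeR log2 difference is that difference, without its sign, divided by the square root of the F statistic. Python 3.11.15, numpy 2.4.6, pandas 2.3.3, scipy 1.17.1 and biopython 1.88 did the rest. P60 enters with 58 of its 174 unsorted cells, taken at even spacing along their numbers, and 931 columns, the other P60 cells and groups outside these comparisons, were not used.

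The genes named are H19, Scd1, the 15 highest and 15 lowest differences without numbered gene models, up to 6 per list, and all members of 7 lists (fetal, imprinted, fatty acid synthesis, cholesterol, oxidation, iron and clock) and of lists of other cells. Values of some of these genes are not reported here. Members and lists were chosen with earlier results of these data known.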

Additional observations from a re-analysis of the deposited data

How the results depend on the processing

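No paired analysis was possible because each age is 1 pool of cells and no replicate number or animal links the ages. For P24 against P18, 1.87% of the genes compared were at least 2-fold higher and 0.729% lower. These shares were 1.04% and 1.27% with TMM factors, 1.04% and 1.23% with median-of-ratios factors, 1.25% and 0.627% with no filter on low values, which compares more genes, and 1.69% and 0.691% with a filter at 20 CPM and 30% of cells, which compares fewer. A pseudocount of 5 CPM gave 1.05% higher. Spike-rich cells alone gave 4.4% higher, and spike-poor cells alone gave 2.98% higher and 3.99% lower. The cause was not tested for the scalings and the sets. For P24 to P60 against P12 to P18, edgeR called 0.0809% of the genes tested higher and 0.00809% lower. DESeq2 called 2.78% and 3.41%, edgeR with median-of-ratios factors 0.0485% and 0%, with no filter 0.965% and 1.01%, with thinned cells 0.378% and 0.265%, with spike-rich P24 and P18 cells 1.35% and 1.05%, and with spike-poor ones 0% and 0.0247%. Leaving out 1 age in turn gave 0 to 1.47% higher and 0 to 1.17% lower: 0.00784% and 0% without P12, 0% and 0% without P15, 0.873% and 1.09% without P18, 1.47% and 1.17% without P24, 0.00784% and 0% without P30, and 0.0234% and 0.0234% without P60, where a side with 2 pools is assumed to vary like the other. All 11 calls were among those without P18 and without P24. The cause of these shifts was not tested. Single differences that turned sign are listed only for named genes past 2-fold in the pooled cells. Between spike-poor cells they were Cdkn1a (0.96), Dhcr7 (−0.15), Hmgcs1 (−0.46), Lss (−0.47), Mid1ip1 (−0.38), Mvk (−0.087), Per3 (−0.999) and Rarres1 (0.34). Between spike-rich cells they were Dcn (0.49), Derl3 (−0.045), Ecm1 (0.19), Gadd45b (0), Hba-a2 (3.21), Hbb-bs (2.65), Saa1 (0.18) and Sparc (1.71). Others were Cdc20 in the periportal range (0.082 with 1 cut for both ages), Cenpf (−0.53 without cells with 6 or more mitotic genes) and Hba-a2 (0.22 without the 10% of cells with the lowest and the 10% with the highest totals). Cenpf is itself among the mitotic genes by which those cells were left out. The settings that take cells by spike-in, by markers of other cells or by mitotic genes were chosen after seeing the data. Smaller pooled differences also turned sign between spike-poor cells, among them those of Afp, Fads1, Srebf1 and Srebf2. Of the single-gene values between P24 and P18 not listed above, 2516 stayed within counting error. Another 1736 moved beyond it, not all of them with the same sign. Depth limits shares of low genes, since P18 cells held fewer counts than P24 cells.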
